A study of Mus musculus with 6 samples.

Results

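The receptors for acetylcholine, dopamine and noradrenaline were examined in the hippocampus of mice that had lost CBP, the histone acetyltransferase and CREB coactivator encoded by Crebbp. The 10 genes were taken by name from the 55471 genes of the count table and comprised the muscarinic receptors Chrm1, Chrm2, Chrm3 and Chrm4, the dopamine receptors Drd1 and Drd5, and the adrenergic receptors Adra1a, Adra1d, Adra2a and Adrb1. They were not chosen by a threshold on these values, and all 10 passed the filter on low counts that left 17981 genes for testing. RNA-seq had been performed on total hippocampal RNA in 6 libraries, 3 Control and 3 CBP-ifKO, from C57BL/6 mice aged 3 to 6 months. CBP-ifKO mice carried floxed Crebbp together with the tamoxifen-inducible recombinase Camk2a-creERT2, which is active in excitatory neurons of the forebrain. Controls were littermates without the recombinase transgene according to the protocol, although the short description of the Control samples names Camk2a_creERT2. Animals of both groups received 5 doses of tamoxifen (20 mg/mL) by gavage on alternate days. The methods of the study describe pooled hippocampi of female mice for an experiment of this kind, so that a library need not be an individual animal, and p-values measure the spread between libraries.

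Crebbp and Esr1 were read first as a check of the labels, because the recombinase contains part of the estrogen receptor. Values listed in threes are those of replicates 1, 2 and 3 in this order, and levels are in CPM, read counts divided by library sizes that were adjusted with TMM factors. The Control libraries held Crebbp at 209, 156 and 208 CPM and the CBP-ifKO libraries at 109, 87.1 and 99.4 CPM (edgeR adjusted p 3.63e-05, log2 fold change -0.96). Esr1 rose from 5.65 to 6.29 CPM over the Control libraries to between 63.6 and 69.4 CPM over the CBP-ifKO libraries (log2 fold change 3.45, edgeR adjusted p 7.90e-13). Every library matched its label by both genes. The low Esr1 of all Control libraries goes with the protocol, by which Controls lack the recombinase transgene. The groups therefore differ in carrying this transgene as well as in Crebbp. Libraries held 10199008 to 14950257 counts, and mitochondrial genes took 6.95% to 8.73% of them. Libraries differed in how their counts followed the GC content of genes, with slopes from -0.117 (CBP-ifKO replicate 2) to 0.144 (Control replicate 2) on the log2 scale per 10 points of GC content.

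All of these receptors are G protein-coupled receptors and fall into 3 signalling classes. Chrm1 and Chrm3 and the alpha-1 receptors Adra1a and Adra1d couple to Gq, which activates phospholipase C and closes M-type potassium channels. Chrm2, Chrm4 and Adra2a couple to Gi and Go, which lower cAMP and open inwardly rectifying potassium channels, and the D1-type receptors Drd1 and Drd5 together with Adrb1 couple to Gs or Golf, which raise cAMP. In the hippocampus their ligands arrive mostly on long-range axons, acetylcholine from the septum and noradrenaline and dopamine from the brainstem, and these inputs are known for their influence on excitability, plasticity and memory. Pyramidal and granule neurons, interneurons and glia carry different sets of them, and RNA of whole tissue adds all of these cells together.

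Among the 10 receptor genes, 3 fell in CBP-ifKO hippocampus (Chrm3, Adra2a and Adrb1) and 1 rose (Drd5). Drd5 reached 153% of its Control level, whereas Chrm3 stood at 81.7%, Adrb1 at 69.3% and Adra2a at 63.2% of theirs. The other 6 genes did not pass an edgeR adjusted p of 0.05. Over all genes tested, 6.39% passed this threshold, 4.99% as lower and 1.40% as higher in CBP-ifKO. Groups did not overlap for 6 of the 10 receptor genes, 5 of them lower (Chrm3, Chrm4, Adra1a, Adra2a and Adrb1) and 1 higher (Drd5). The same held for 25.6% of all genes tested, with 13.9% lower and 11.8% higher. The median log2 fold change of the 10 genes was -0.26, against -0.00331 over all genes tested, and 7 of the 10 values were below 0. In whole tissue, a smaller number of cells of a type and less RNA per cell cannot be told apart.

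**Figure D1:**
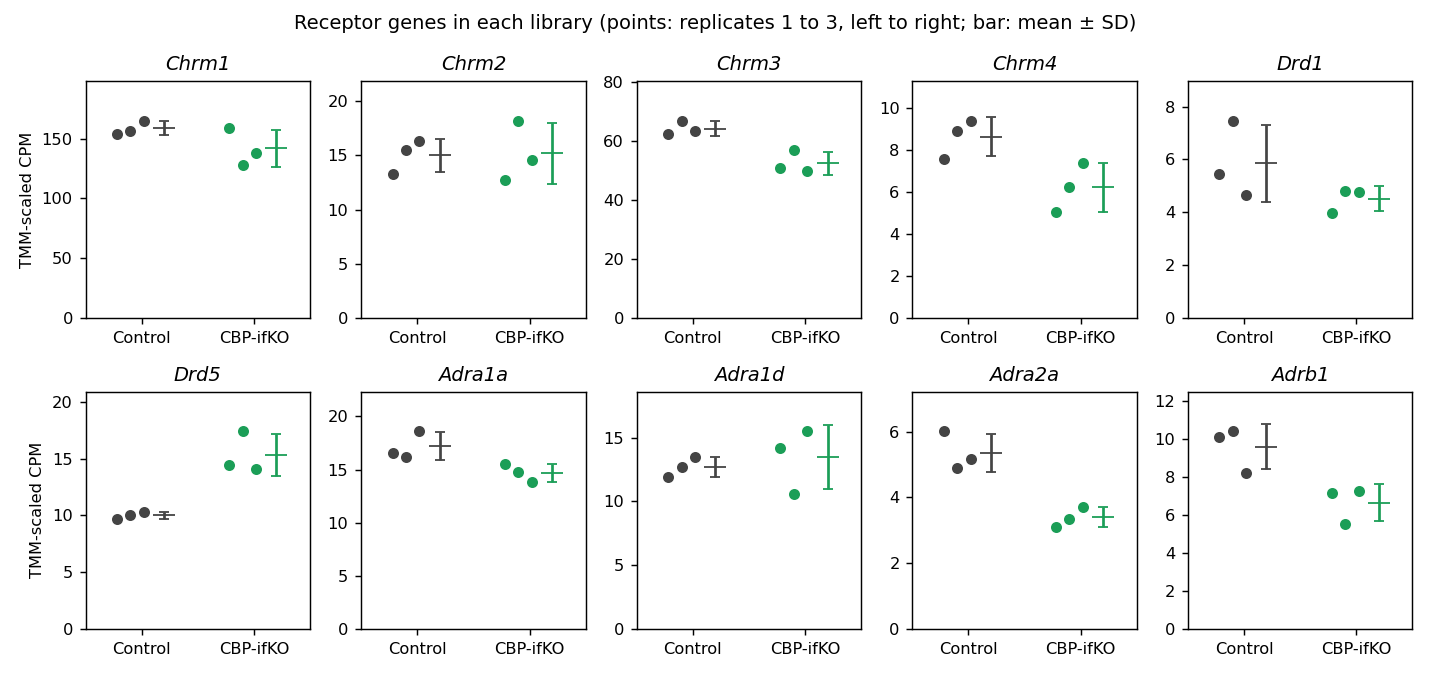
TMM-scaled CPM of each receptor gene in the 3 Control libraries (grey) and the 3 CBP-ifKO libraries (green), with replicates 1 to 3 from left to right and the mean ± SD beside them; every axis starts at 0. All CBP-ifKO points lie below all Control points for Chrm3, Chrm4, Adra1a, Adra2a and Adrb1 and above them for Drd5, and the groups overlap for Chrm1, Chrm2, Drd1 and Adra1d.

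**Figure D2:**
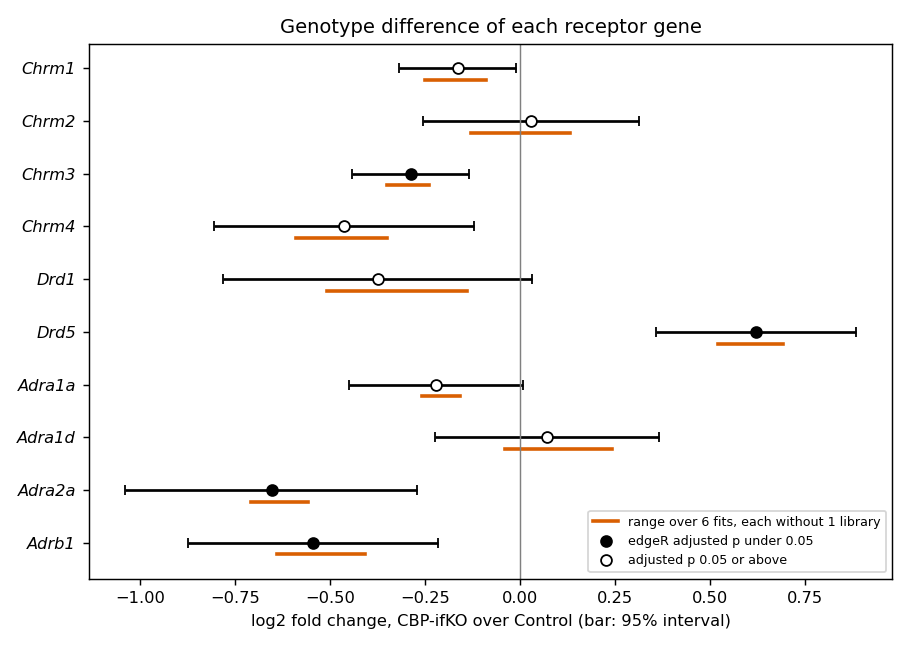
Log2 fold change (CBP-ifKO over Control) of each receptor gene with its 95% interval in black, filled where the edgeR adjusted p was under 0.05; the orange line below each point spans the values of the 6 fits that each left out 1 library. Drd5 lies at 0.62, to the right of 0, Adra2a lies farthest to the left at -0.65, and the orange lines of Chrm2 and Adra1d cross 0.

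Sequence at the start sites was considered for the 4 genes that passed the test, because CBP is recruited by CREB, whose binding site is the cAMP response element TGACGTCA. RefSeq windows from 250 bases before to 50 bases after the start (build GRCm38.p6) matched 7 of the 10 genes (Drd1 with 2 windows), and the windows of Chrm1, Adra1a and Adra1d are not shown. The element TGACGTCA was in none of the matched windows on either strand, as against 1.79% of all 32851 windows. Its shorter core TGACG, which lies within the full element, occurred in the windows of Adra2a (first base at position -69 from the RefSeq start) and Adrb1 (position -90), as against 20.8% of all windows. It was not found in the windows of Drd5, Chrm3, Chrm2, Chrm4 or Drd1. The AP-1 motif TGANTCA was in no window of these genes (7.81% of all windows), and the GC box GGGCGG was in every matched window other than that of Chrm3 (35.7% of all windows), with 4 matches for Chrm4 and 2 for Drd5. Below are the bases before the RefSeq start that lie outside the counted exons, 5′ to 3′ on the strand of the gene, with TGACG in capitals. For Adra2a, whose whole window lies inside the counted exon, 30 bases around the motif are given.
Drd5, chr5:38319259-38319366, plus strand: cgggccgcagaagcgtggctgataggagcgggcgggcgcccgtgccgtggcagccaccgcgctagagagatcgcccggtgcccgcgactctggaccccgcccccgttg
Chrm3, chr13:10360848-10361053, minus strand: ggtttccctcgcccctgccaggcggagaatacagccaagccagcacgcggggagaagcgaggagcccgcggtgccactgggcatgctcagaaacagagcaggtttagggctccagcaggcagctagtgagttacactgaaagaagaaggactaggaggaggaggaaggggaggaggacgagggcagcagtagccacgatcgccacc
Adra2a, chr19:54045178-54045207, plus strand: ccacgtgggggcTGACGccggctgctcggc
Adrb1, chr19:56721867-56722116, plus strand: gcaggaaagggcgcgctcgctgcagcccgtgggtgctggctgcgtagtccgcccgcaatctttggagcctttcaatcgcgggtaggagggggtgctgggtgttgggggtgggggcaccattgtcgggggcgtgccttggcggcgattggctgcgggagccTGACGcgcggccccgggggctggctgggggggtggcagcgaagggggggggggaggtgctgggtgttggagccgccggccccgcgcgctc

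Per length, the muscarinic Gq receptors were the most abundant of the set. In Control libraries Chrm1 reached 24.4 ± 0.927 CPM per kb of exon and Chrm3 10.3 ± 0.386 CPM per kb (SD, n = 3), followed by Adra1d at 6.69 ± 0.412 and Chrm4 at 6.01 ± 0.653 CPM per kb. Drd5 (3.18 ± 0.103), Adrb1 (2.83 ± 0.349) and Chrm2 (2.48 ± 0.25 CPM per kb) came next, then Adra1a (1.97 ± 0.148), Drd1 (1.62 ± 0.400) and Adra2a (1.11 ± 0.120 CPM per kb). Control ranges of neighbours in this order overlapped between Adra1d and Chrm4, between Drd5 and Adrb1, between Adrb1 and Chrm2, and between Adra1a and Drd1, and these pairs cannot be ordered. The highest level was 22.1 times the lowest. By the means of the CBP-ifKO libraries Drd5 stood 4th with 4.86 ± 0.582 CPM per kb, ahead of Chrm4 with 4.33 ± 0.822. Chrm2 (2.50 ± 0.463) had a higher mean than Adrb1 (1.96 ± 0.288 CPM per kb). The CBP-ifKO ranges overlapped within both pairs, so that these pairs cannot be ordered either.

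Muscarinic receptors of the Gq class were read in the most counts, between 524 and 1954 in a library, so that counting error was small for them. Chrm1 encodes the M1 receptor, the main muscarinic receptor of pyramidal neurons. Its level was 154, 156 and 165 CPM in the Control libraries, against 159, 128 and 138 CPM after loss of CBP. CBP-ifKO replicate 1 lay within the Control range and the other two libraries below it. The means of 159 ± 6.01 and 142 ± 15.4 CPM (SD, n = 3) gave a log2 fold change of -0.16 (95% interval -0.319 to -0.0110, edgeR adjusted p 0.202), which did not pass the threshold. It became -0.25 without CBP-ifKO replicate 1 (adjusted p 0.0520), -0.09 without CBP-ifKO replicate 2 (0.588) and -0.10 without Control and CBP-ifKO replicates 2 together (0.418).

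Chrm3, which encodes the M3 receptor (ENSMUSG00000046159, GRCm38 chr13:9875486-10360847, minus strand, protein coding), fell in CBP-ifKO hippocampus. Control libraries gave 62.3, 67.0 and 63.6 CPM, and CBP-ifKO libraries gave 50.8, 57.0 and 49.8 CPM. The highest CBP-ifKO library, replicate 2, remained below the lowest Control library. The mean of 64.3 ± 2.41 CPM became 52.5 ± 3.90 CPM (SD, n = 3). This is a log2 difference of -0.29 (95% interval -0.444 to -0.135, SE 0.073) with an edgeR adjusted p of 0.0254. DESeq2 also called it (adjusted p 0.0420), as did the fit that removed trends on GC content and length (adjusted p 0.0363). Leaving out Control replicate 2 or 3 ended the call (edgeR adjusted p 0.0577 and 0.0951), and so did leaving out CBP-ifKO replicate 1 or 3 (0.0829 and 0.162), with log2 fold changes between -0.35 and -0.24 over the 6 fits that left out 1 library each.

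The ratio of Chrm1 to Chrm3 did not separate the groups. It was taken from the counts, without scaling for the length of each gene, as were the ratios below. On the log2 scale it was 1.30 ± 0.0779 in Control and 1.43 ± 0.238 in CBP-ifKO (SD, n = 3), with ranges that overlapped. The exact permutation test gave a two-sided p of 0.5, or 0.6 after Benjamini-Hochberg adjustment over 6 ratios. With 3 libraries against 3 this test cannot give a p below 0.1, so that no such ratio could pass 0.05.

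Of the Gi-coupled muscarinic receptors, Chrm2 encodes M2, a receptor of interneurons and of cholinergic terminals, and Chrm4 encodes M4. Chrm2 was present at 13.3, 15.5 and 16.3 CPM in Control hippocampus, and its CBP-ifKO levels were 12.7, 18.2 and 14.6 CPM. CBP-ifKO libraries held both the lowest and the highest value. Its log2 fold change of 0.029 had a 95% interval from -0.256 to 0.313 (edgeR adjusted p 0.940), and its sign turned in 5 of 18 alternative fits.

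Chrm4 levels were 7.60, 8.93 and 9.42 CPM in Control libraries, as against 5.04, 6.24 and 7.41 CPM where CBP was removed. The groups did not overlap, but by a narrow margin, since CBP-ifKO replicate 3 was close to Control replicate 1. The means of 8.65 ± 0.940 and 6.23 ± 1.18 CPM (SD, n = 3) gave a log2 fold change of -0.46 (95% interval -0.807 to -0.121), which missed the threshold (edgeR adjusted p 0.102, and between 0.0725 and 0.306 over 18 alternatives). These values rest on 52 to 104 counts in a library. The counted model of Chrm4 (GRCm38 chr2:91927249-91928688) is an exon of 1440 bases that is almost wholly coding, whereas the RefSeq start lies farther upstream at a signed distance of -5060 bases, so that reads from upstream exons are not in these counts.

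The log2 ratio of Chrm2 to Chrm4 counts, not scaled for length, was 0.81, 0.79 and 0.79 in Control and 1.33, 1.54 and 0.98 in CBP-ifKO. Every CBP-ifKO library exceeded every Control library (difference of the means 0.49, exact permutation p 0.1, the smallest possible, 0.3 after adjustment), which is not significant in this design. Such a ratio does not depend on the scaling of the library, but a GC trend of the library can enter it. Chrm2 has a GC content of 41.6% and Chrm4 of 57.0%. With GC and length trends removed, the edgeR log2 fold changes were -0.01 for Chrm2 and -0.34 for Chrm4. The part of GC content in this ratio was not tested.

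Drd5, the D5 receptor gene (ENSMUSG00000039358, GRCm38 chr5:38319367-38322518, plus strand, an exon of 3152 bases), was the receptor gene that rose. In Control libraries it gave 9.67, 10 and 10.3 CPM, and in the CBP-ifKO group 14.4, 17.4 and 14.1 CPM. The Control libraries were tight, and the lowest CBP-ifKO library was well above the highest of them. Means of 10 ± 0.324 and 15.3 ± 1.83 CPM (SD, n = 3) correspond to a log2 fold change of 0.62 (SE 0.12, 95% interval 0.358 to 0.883, edgeR p 0.000121, adjusted p 0.00602). The counts behind it were 103, 117 and 104 in Control and 149, 265 and 171 in CBP-ifKO. Drd5 passed the threshold in all 18 alternative fits, with log2 fold changes from 0.52 to 0.69 and adjusted p-values from 0.000203 to 0.0492, the last without CBP-ifKO replicate 2.

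The exon of Drd5 shares 1531 bases (48.6%), of which 1232 are coding, with Gm26560, an antisense gene on the minus strand (chr5:38317333-38320897). Whether reads were counted by strand is not given in the sources used here, so that reads of these genes within the shared stretch cannot be told apart. Gm26560 itself received 4, 5 and 6 counts in Control against 11, 13 and 7 in CBP-ifKO, and it did not pass the filter on low counts. If reads in the shared stretch went to neither gene, the Drd5 level would be 6.17 ± 0.2 CPM per kb of the 1621 unshared bases in Control and 9.44 ± 1.13 in CBP-ifKO.

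Drd1, the D1 receptor gene, is best known from the striatum and is sparse in the hippocampus. Levels were 5.45, 7.47 and 4.66 CPM in Control libraries and 3.97, 4.80 and 4.77 CPM in those from CBP-ifKO, on 41 to 87 counts in a library. Control replicate 2 stood apart as the highest library, and Control replicate 3 lay below 2 of the 3 CBP-ifKO libraries. The log2 fold change of -0.38 (95% interval -0.782 to 0.0308, edgeR adjusted p 0.277) became -0.14 without Control replicate 2. Among 7 striatal marker genes, 5 were tested, of which Penk (an opioid peptide precursor) fell (14.3 to 5.93 CPM, edgeR adjusted p 0.000148) and Rgs9 rose (13.1 to 17.8 CPM, adjusted p 0.0221). The 7 markers summed to between 43.3 and 47.9 CPM in Control and between 35.1 and 37.8 CPM in CBP-ifKO, none was at 0 in every library, and Isl1 averaged 0.0313 and 0.0493 CPM. Their part in the Drd1 values was not tested.

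Relative to Drd5, which itself rose (log2 fold change 0.62), less Drd1 was read in every CBP-ifKO library than in every Control library. For Drd1 alone the groups overlapped (log2 fold change -0.38, edgeR adjusted p 0.277). The log2 ratio of Drd1 to Drd5 counts, not scaled for length, was -0.83, -0.43 and -1.15 in Control and -1.86, -1.86 and -1.56 in CBP-ifKO. Means of -0.80 ± 0.36 and -1.76 ± 0.174 (SD, n = 3) differed by -0.96, without overlap (exact permutation p 0.1, the smallest possible, 0.3 after adjustment).

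The alpha-1 receptors, which couple noradrenaline to Gq, did not pass the test. For Adra1a, Control libraries had 16.6, 16.2 and 18.6 CPM and CBP-ifKO libraries 15.5, 14.8 and 13.8 CPM. Control replicate 2 and CBP-ifKO replicate 1 were close together, and the groups did not overlap. Its log2 fold change was -0.22 (95% interval -0.452 to 0.00671, edgeR adjusted p 0.251).

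Adra1d was read at 11.9, 12.7 and 13.5 CPM in the Controls, whereas the CBP-ifKO values were 14.2, 10.6 and 15.5 CPM. CBP-ifKO replicate 2 was the lowest of all libraries and CBP-ifKO replicates 1 and 3 the highest. The log2 fold change was 0.071 (95% interval -0.225 to 0.366, edgeR adjusted p 0.831). Adra1d has the highest GC content of the set, 65.4% in its longest transcript, and 97 genes within 2 points of it had a median log2 fold change of -0.29. With trends on GC content and length removed, the log2 fold change of Adra1d was 0.39 (adjusted p 0.0825), and with the replicate number added as a block it was 0.38 (adjusted p 0.0296). It was -0.04 without CBP-ifKO replicate 3.

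Adra2a, the gene of the Gi-coupled alpha-2A receptor that acts as an autoreceptor on noradrenergic terminals and as a postsynaptic receptor (ENSMUSG00000033717, GRCm38 chr19:54044151-54048982, plus strand, an exon of 4832 bases), had the largest decrease among the 10 genes in the test on all libraries. Its Control levels were 6.01, 4.90 and 5.16 CPM and its CBP-ifKO levels 3.10, 3.35 and 3.70 CPM. The groups were clearly apart, although the gene had the lowest level per length of the set. Means were 5.35 ± 0.582 CPM and 3.39 ± 0.302 CPM (SD, n = 3), and edgeR gave an adjusted p of 0.0402 for a log2 fold change of -0.65 (SE 0.18, 95% interval -1.04 to -0.271). Counts of 52 to 64 in Control and 32 to 51 in CBP-ifKO limit its precision. The call did not hold with DESeq2 (adjusted p 0.154) or with GC and length trends removed (log2 fold change -0.48, adjusted p 0.142), and leaving out 1 library gave 0.127 (Control replicate 1), 0.106 (Control replicate 3), 0.104, 0.145 and 0.0883 (each CBP-ifKO replicate in turn).

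Adrb1, which encodes the beta-1 receptor (ENSMUSG00000035283, GRCm38 chr19:56722199-56733113, plus strand), also fell. The 3 Control libraries had 10.1, 10.4 and 8.23 CPM, and the 3 CBP-ifKO libraries 7.17, 5.52 and 7.24 CPM. The lowest Control library, replicate 3, was above all CBP-ifKO libraries, of which replicate 2 was the lowest. The mean of 9.59 ± 1.18 CPM became 6.64 ± 0.974 CPM (SD, n = 3), with a log2 fold change of -0.55 (SE 0.16, 95% interval -0.876 to -0.217, edgeR adjusted p 0.0454). This call sat at the threshold: DESeq2 gave an adjusted p of 0.121, and leaving out any 1 of Control replicates 1, 2 and 3 or CBP-ifKO replicates 1, 2 and 3 gave 0.108, 0.0976, 0.0528, 0.0665, 0.230 and 0.0895. The log2 fold change was -0.39 (adjusted p 0.133) with GC and length trends removed.

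The log2 ratio of Adra2a to Adrb1 was -0.84 ± 0.218 in Control and -0.97 ± 0.245 in CBP-ifKO, with overlapping groups (exact permutation p 0.6, also after adjustment). That of Adra1a to Adra1d was 0.43 ± 0.070 and 0.14 ± 0.319 (p 0.3, adjusted 0.450), and that of Chrm1 to Chrm4 was 4.20 ± 0.120 and 4.52 ± 0.402 (p 0.200, adjusted 0.400). None of these 3 ratios separated the genotypes.

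Summed within a signalling class, the Gq and Gi receptors were lower in every CBP-ifKO library than in every Control library. The 4 Gq receptor genes summed to 41.9, 43.4 and 44.9 CPM per kb in Control and 41.8, 36.2 and 39.0 in CBP-ifKO, with CBP-ifKO replicate 1 nearly at the level of Control replicate 1. Chrm1 provides most of this sum, and within it the mean of Adra1d was higher in CBP-ifKO (7.09 against 6.69 CPM per kb in Control). The 3 Gi receptor genes summed to 8.73, 9.77 and 10.3 CPM per kb in Control and 6.24, 8.04 and 8.32 in CBP-ifKO. The CBP-ifKO mean was 78.5% of the Control mean. Chrm4, which did not pass the threshold, made up most of this fall, with means of 6.01 in Control and 4.33 CPM per kb in CBP-ifKO. Chrm2 was at 2.48 and 2.50, and Adra2a at 1.11 and 0.701 CPM per kb. The 3 Gs receptor genes summed to 7.57, 8.32 and 6.99 CPM per kb in Control and 7.80, 8.48 and 7.92 in CBP-ifKO, and these groups overlapped, with Drd5 higher and Adrb1 lower within the sum. The sums are given as a description, without a test. Among single genes tested, 13.9% had groups that did not overlap with CBP-ifKO lower.

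Differences between the genotypes varied with GC content over all genes tested, and the receptor genes span 41.6% (Chrm2) to 65.4% (Adra1d). The 1709 genes within 2 points of Adra2a (58.6% GC) had a median log2 fold change of -0.15, and 13.9% of them were called lower. Near Adrb1 (58.8% GC) the median was -0.15 over 1631 genes and 14.2% were called lower. Chrm3 (50.2% GC) and Drd5 (52.7% GC) lay where the medians were near 0, at 0.00 over 3570 genes with 4.06% called lower and at -0.03 over 3270 genes with 0.856% called higher. The 2 libraries with the steepest slopes on GC content were Control replicate 2 and CBP-ifKO replicate 2. Without both, Chrm3 (log2 fold change -0.32, edgeR adjusted p 0.00907) and Drd5 (0.52, adjusted p 0.0294) passed the threshold, whereas Adra2a (-0.70, adjusted p 0.0667) and Adrb1 (-0.34, adjusted p 0.267) did not.

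**Figure D3:**
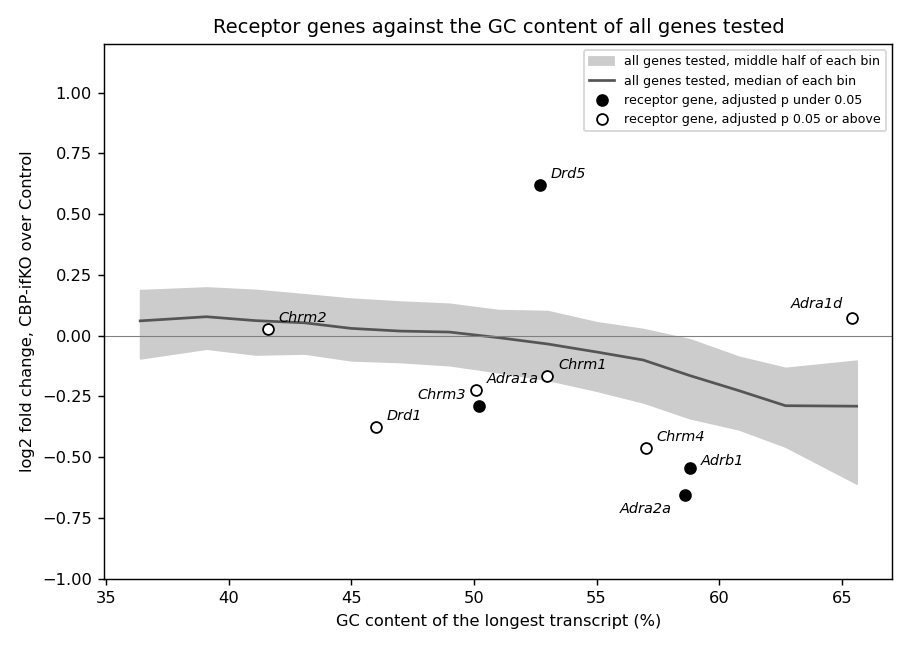
Log2 fold change (CBP-ifKO over Control) of the 10 receptor genes against the GC content of the longest transcript in percent, over the median (line) and the middle 50% (grey band) of all genes tested in bins of GC content. The line falls below 0 at high GC content. Drd5 (52.7% GC) and Adra1d lie above the band, and Chrm1 and Chrm2 lie within it. Chrm3, Chrm4, Drd1, Adra1a, Adra2a (58.6% GC) and Adrb1 (58.8% GC) lie below it, so that called and uncalled genes are outside the band.

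Other members of the muscarinic, dopamine and adrenergic families were rare or did not pass the test. Of 8 such genes read here, 4 were tested and 0 were called by edgeR, DESeq2 or limma-voom, and an unadjusted p under 0.05 was given to 3 of the 4 by edgeR, to 1 by DESeq2 and to 3 by limma-voom. Adra2c, the alpha-2C receptor gene, was the most abundant of them, with 11.9, 13.2 and 14.0 CPM in Control libraries, 10.9, 11.1 and 10.5 CPM in CBP-ifKO libraries and an edgeR adjusted p of 0.202 (log2 fold change -0.27). Chrm5 (M5) was at 3.61 ± 0.880 and 2.22 ± 0.0866 CPM (log2 fold change -0.69, adjusted p 0.0936), Adra1b at 1.61 ± 0.152 and 0.938 ± 0.329 CPM (-0.78, adjusted p 0.180), and Drd2 at 1.18 ± 0.322 and 1.49 ± 0.248 CPM (0.32, adjusted p 0.630). Groups did not overlap, with CBP-ifKO lower, for Chrm5, Adra1b and Adra2c, as was the case for 13.9% of all genes tested. Drd3 (0 to 1 counts in a library), Drd4 and Adra2b (0 to 3 counts each) and Adrb3 (3 to 15 counts) were under the filter, and at this depth 3 counts correspond to 0.197 to 0.298 CPM.

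Genes that make, move or break down the ligands are for the most part expressed in the distant neurons that send the axons. Of 15 such genes 8 were tested, and 1 was called as lower, as against 4.99% of all genes tested. Ache, acetylcholinesterase, which ends cholinergic transmission, fell from 21.8, 31.9 and 27.6 CPM in Control to 18.9, 17.2 and 20.2 CPM in CBP-ifKO, a log2 change of -0.54 (edgeR adjusted p 0.0152, SE 0.12), with all CBP-ifKO libraries below all Control libraries. It missed the threshold without Control replicate 3 (adjusted p 0.0677) and without CBP-ifKO replicate 2 (0.108). Its log2 fold change was -0.36 with GC and length trends removed (adjusted p 0.0391), and it was -0.32 without the pair of libraries with the steepest GC slopes (adjusted p 0.121), which ended the call. Bche, the related butyrylcholinesterase, was at 17.4 ± 0.959 and 14.2 ± 1.52 CPM (adjusted p 0.147), and Slc5a7, the choline transporter, at 1.08 ± 0.132 and 0.551 ± 0.0578 CPM (adjusted p 0.148). Chat and Slc18a3, which define cholinergic neurons, had 0 to 3 counts, and Th, Dbh and Slc6a2, which define catecholamine neurons, had 0 to 10, 1 to 5 and 0 to 3 counts. Slc6a3, the dopamine transporter, had 5, 3 and 0 counts in Control and 14, 14 and 9 in CBP-ifKO, and Slc22a3 had 0 to 8 counts. These 7 genes were under the filter and were not tested. The median log2 fold change of the 8 tested genes was -0.07.

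Receptor kinases, arrestins and RGS proteins set how long a receptor signals. All 15 genes of this list were tested, 3 fell and 1 rose, as against 4.99% lower and 1.40% higher over all genes tested. The median log2 fold change was -0.17, and it was -0.07 with GC and length trends removed. Rgs14, an RGS protein known for its high level in area CA2, fell from 74.3 ± 9.59 to 31.2 ± 1.39 CPM (log2 fold change -1.25, edgeR adjusted p 8.34e-07). Rgs4, a brake on Gq and Gi signalling, fell from 149.9 ± 16.2 to 106 ± 11.5 CPM (-0.50, adjusted p 0.00163), and Rgs8 from 80.5 ± 3.55 to 68.3 ± 2.01 CPM (-0.24, adjusted p 0.0401). Grk4, a receptor kinase, rose from 5.12 ± 0.0583 to 7.70 ± 0.982 CPM (0.59, adjusted p 0.0351). The calls of Rgs14 and Rgs4 held in all 18 alternatives. Those of Rgs8 and Grk4 held in 9 and 12 of 18, with adjusted p-values up to 0.187 and 0.144 otherwise. Leaving out Control replicate 1 or 3 ended both calls, and so did leaving out CBP-ifKO replicate 1 or 2, while CBP-ifKO replicate 3 decided that of Rgs8 as well. The more abundant kinases Grk2 and Grk3 and the arrestins Arrb1 and Arrb2 did not pass the threshold, with log2 fold changes from -0.18 to -0.075.

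Downstream of Gq, 2 of 12 genes fell and 0 rose past the threshold by edgeR, DESeq2 or limma-voom. By each of them 5 of 12 had an unadjusted p under 0.05, and the median edgeR log2 fold change was -0.15. Over all genes tested, edgeR called 4.99% lower and 1.40% higher. Prkcb, protein kinase C beta, fell from 628 ± 29.1 to 467 ± 22 CPM (log2 fold change -0.43, edgeR adjusted p 0.000335). Kcnq3, a subunit of the M-type potassium channel that muscarinic receptors close, fell from 376 ± 55.1 to 282 ± 15.2 CPM (-0.42, adjusted p 0.00608). It missed the threshold without CBP-ifKO replicate 3 (adjusted p 0.0601), whereas Prkcb passed in all 18 alternatives. Gnaq, the Gq alpha subunit gene, was at 272 ± 25.5 and 247 ± 13.1 CPM (adjusted p 0.278), and Plcb1, the phospholipase it activates, at 464 ± 4.50 and 454 ± 6.12 CPM (adjusted p 0.792).

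Among 8 genes of the Gi and Go arm, 2 fell and the median log2 fold change was -0.08. Gnaz, the alpha subunit of Gz, fell from 78.6 ± 3.60 to 57.8 ± 5.48 CPM (-0.44, edgeR adjusted p 0.00196), and Kcnj9, a subunit of the inwardly rectifying channels that these receptors open, from 68.9 ± 7.06 to 55.0 ± 3.73 CPM (-0.33, adjusted p 0.0232). Among 11 genes of the Gs and Golf arm, 1 rose and 1 fell and the median was -0.09. Gnal, the alpha subunit of Golf, rose from 106 ± 4.97 to 123 ± 4.60 CPM (0.22, adjusted p 0.0462), and Adcy5, an adenylyl cyclase, fell from 100.2 ± 2.14 to 74.5 ± 6.35 CPM (-0.43, adjusted p 0.00134). With GC and length trends removed these medians were -0.03 and -0.04. Gnaz and Adcy5 passed in all 18 alternatives, although the log2 fold change of Adcy5 was -0.23 with GC and length trends removed (adjusted p 0.0486). That of Kcnj9 was -0.19 in the same fit (adjusted p 0.0877, and 0.0521 with the replicate block added) and -0.18 without the pair of libraries with the steepest GC slopes (0.156), and none of these passed. Kcnj9 passed in 11 of 18 alternatives, also missing the threshold without Control replicate 2 (adjusted p 0.0707) or 3 (0.0602) and without CBP-ifKO replicate 2 (0.145) or 3 (0.0914), and Gnal passed in 12, missing it whenever any of the 6 libraries was left out (0.0577 to 0.141). The shares called in these lists can be read against 4.99% lower and 1.40% higher over all genes tested.

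**Figure D4:**
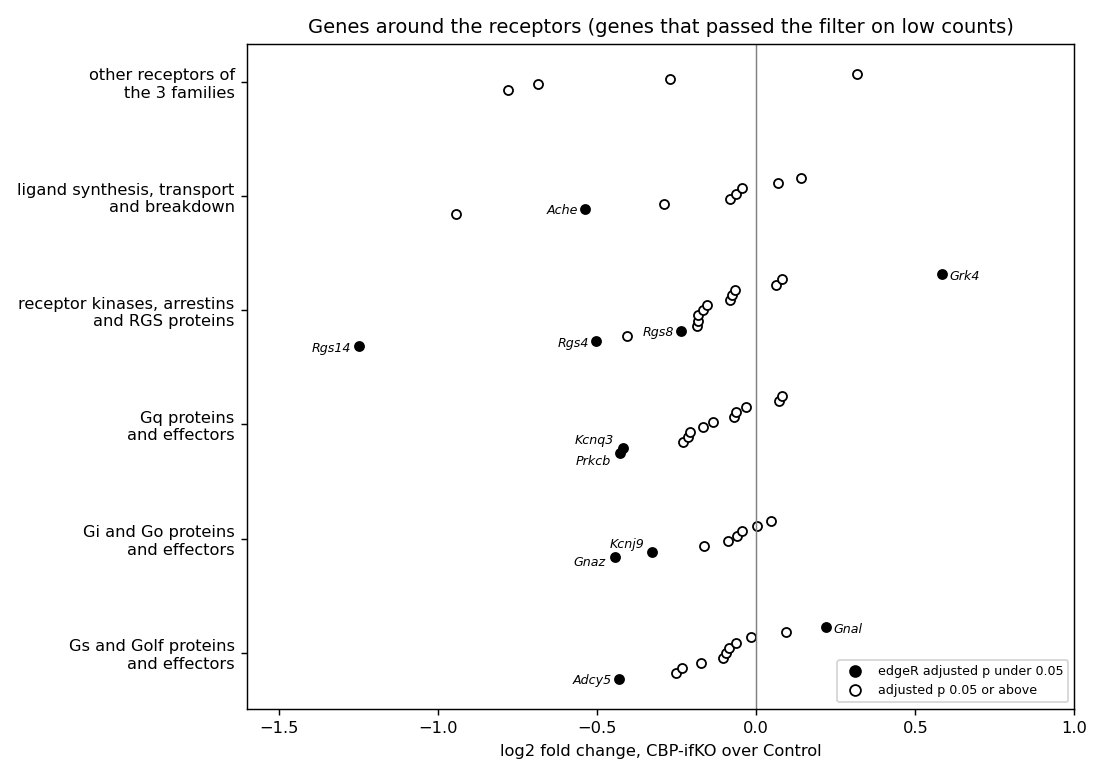
Log2 fold change (CBP-ifKO over Control) of the tested genes of 6 lists around the receptors, 1 point per gene, filled and named where the edgeR adjusted p was under 0.05; height within a list only separates the points. Named points lie at -1.25 (Rgs14) to 0.59 (Grk4), and the further receptors of the 3 families have no filled point.

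Markers of hippocampal cell types were read beside these results. Calls in these lists can be read against 4.99% lower and 1.40% higher over all genes tested. CA1 pyramidal markers summed to between 631 and 663 CPM in Control and between 466 and 491 CPM in CBP-ifKO, and 5 of 7 fell. Of the interneuron markers, 2 of 8 fell (Slc32a1 and Sst), with sums of 558 to 593 and 505 to 538 CPM. In the CA3 list 1 of 7 fell, in the dentate granule list 2 of 7 fell and 1 rose, and the lists of astrocytes, microglia, oligodendrocytes, endothelium, choroid plexus, thalamus and cortex held 0 calls by edgeR, DESeq2 or limma-voom, with 1 to 4 genes per list at an unadjusted edgeR p under 0.05. CA3 sums were 376 to 389 CPM in Control and 326 to 336 CPM in CBP-ifKO, and those of the cortex list were 166 to 173 and 144 to 152 CPM, so that the groups were apart for these lists as well. Astrocyte sums were 1472 to 1564 and 1433 to 1540 CPM, with overlap. No marker was at 0 in every library. The part of these cell types in the receptor levels was not tested.

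Genes whose levels were most like those of Drd5, the receptor gene with the smallest p, were searched among 17432 genes by Pearson's r of log2(CPM + 0.5) over the 6 libraries, which include both genotypes. The 5 highest were Epha7 (r 0.9992), Dph3 (0.9983), Lin28b (0.9968), Kctd18 (0.9965) and Bbs4 (0.9933). After removal of the group means, r was between 0.934 and 0.993 for these genes. Their own log2 fold changes were smaller than that of Drd5, from 0.22 (Bbs4) to 0.52 (Lin28b), and Epha7, Lin28b and Kctd18 passed the threshold (edgeR adjusted p 0.0219, 0.0368 and 0.0375). With 6 points that share library and depth, the r values describe likeness in these libraries and carry no test.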

How the data were processed

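Single-end reads of 50 nt from hippocampal total RNA were, per the labels and the study's methods, checked with FastQC (0.11.8), trimmed with Trim Galore (0.6.4) and aligned with STAR (2.6.1) to GRCm38, and the authors counted reads over exons of Ensembl genes with Rsubread after a filter on mapping quality. The deposited values are raw counts per gene for 6 libraries, with 0 columns unused. The strand setting of the counting is not given in the sources used here.

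Symbols and positions came from a GENCODE annotation of GRCm38 (of 55471 genes, 55144 had a symbol and 55230 a position). Tests used edgeR (4.0.16, R 4.3.3) quasi-likelihood with TMM scaling, filterByExpr (minimum count 10, total 15) and Benjamini-Hochberg adjustment over 17981 genes at a threshold of 0.05, without a replicate block. Levels are TMM-scaled CPM. Standard errors were taken from the estimate and its F value. Ratios of receptor genes were compared with exact permutation tests.

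Alternatives were DESeq2 (1.42.0), limma-voom (limma 3.58.1), robust dispersions, RLE and upper-quartile factors, library totals, no filter, at least 10 counts per library throughout, leaving out libraries in turn, the replicate block, per-library GC and length offsets (natural splines, 5 degrees of freedom), and these with the block. Fitted to simulated counts for 17981 genes, edgeR recovered 86.5% of 200 genes changed by 1 on the log2 scale, and 6.99% of its calls were unchanged genes. The changed genes had means above 1 CPM, and these counts held no GC trend between libraries. These shares therefore do not describe the smaller differences of the receptor genes.

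Receptor genes, lists and alternatives were chosen with earlier results of these data known. Named genes are the 10 receptors, called genes of the receptor-family, ligand, regulation and G protein lists (at most 8 per list) with receptor and ligand genes under the filter, Crebbp and Esr1, and the 5 genes most like the receptor with the smallest p. Grk2, Grk3, Arrb1, Arrb2, Gnaq, Plcb1, uncalled receptor and ligand genes, Penk, Rgs9, Isl1, Slc32a1, Sst and Gm26560 were named after their values were seen. Some genes of these lists are not reported here and are left out of their counts. Replicates of a genotype differed beyond sampling noise (chi-square per degree of freedom at least 2.48).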

Additional observations from a re-analysis of the deposited data

How the results depend on the processing

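Of the 4 receptor calls, that of Drd5 held under all 18 alternatives, and no called receptor or pathway gene changed its sign under any of them. The number of receptor genes past the threshold was 4 and became 2 with DESeq2, 2 with GC and length offsets, 2 without the pair of libraries with the steepest GC slopes (an alternative chosen after seeing the data), 1 with library totals only, and 1 to 2 without single libraries. With library totals only the median of all genes moved to 0.0425, the Chrm3, Adra2a and Adrb1 calls were lost, and 514 genes were higher and 667 lower (56.5% lower, against 78.1%). With upper-quartile factors Adrb1 was lost. The number of genes past the threshold was 1149 (252 higher, 897 lower). It lay between 498 and 1326 without single libraries (76 to 342 higher, 416 to 984 lower), with the lowest values without Control replicate 3 (546), CBP-ifKO replicate 2 (498) and CBP-ifKO replicate 3 (526). The higher calls numbered 413 without the filter. With GC and length offsets 371 were higher and 727 lower, so that 66.2% of calls were lower.

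Same-numbered libraries shared little deviation from their group means, with correlations of 0.0769, 0.0369 and 0.00216. This does not decide whether they were paired in the experiment. The replicate block gave 1210 calls and 2 receptor genes (Chrm3 and Drd5, with Adra2a at an adjusted p of 0.0538 and Adrb1 at 0.0575). With the block and the GC and length offsets together, 1839 genes passed (717 higher, 1122 lower), among them Chrm3, Drd5 and Adra1d.

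Without single libraries the log2 fold change of Chrm2 (0.03) ran from -0.13 (CBP-ifKO replicate 2 left out) to 0.13, and it was -0.05 with Control replicate 1 left out. It was -0.01 with GC and length offsets, -0.03 with these and the block, and -0.10 without the pair of steep libraries. That of Adra1d ran from -0.04 (CBP-ifKO replicate 3 left out) to 0.24. The cause of these changes was not tested. Depth limits genes at 50 to 100 counts, for which counting error alone was 13.2% of the level for Adra2a in Control.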
